A study of Mus musculus with 12 samples.

Results

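White adipose tissue of triple mutant mice was set against brown adipose tissue of ob/ob mice, to ask which brown fat genes the changed white fat reached, exceeded or still lacked. The arrays were taken by title: 3 titled ob/Cidea/Cidec WAT (triple mutant white fat) and 3 titled ob BAT (ob brown fat), which are 6 of the 12 arrays of the series. The ob/ob mice lack leptin and are obese. The triple mutants were ob/ob/Cidea-/-/Cidec-/- mice, so every group lacked leptin, and the triple mutants in addition carried null alleles, per the labels, of the genes for CIDEA and CIDEC, lipid droplet proteins that promote the fusion and growth of droplets. All mice were male, of strain C57, 4 months old and fed chow, and the depot of the white fat is not named in the labels. Total RNA was measured on Affymetrix mouse gene ST arrays, and values are deposited log2 signals. Whether each array stands for its own animal is not stated in the labels; the p-values therefore describe the spread of these 3 samples per group, part of which may be technical. Tissue and genotype differ at once between the groups, and their parts in a difference cannot be told apart.

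Brown fat burns fatty acids to make heat. Noradrenaline acts on adrenergic receptors, cyclic AMP and protein kinase A then release fatty acids from many small lipid droplets, and UCP1 in the inner mitochondrial membrane lets protons flow back without making ATP. White adipocytes instead store triglyceride in a single large droplet and have few mitochondria, and some white depots can gain UCP1-positive beige cells. PRDM16, EBF2 and PGC-1 proteins are known as regulators of the brown programme, whereas developmental genes such as the Hox clusters mark where in the body a fat depot lies.

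Genes of the brown programme ended in different places relative to ob brown fat, and the upstream sequences of 3 of them are shown to set an uncoupling protein that stayed lower beside a cytochrome oxidase subunit that was undecided and a peroxisomal oxidation enzyme that was higher. The 250 bases before the start come from RefSeq, build GRCm38.p6, and are written 5′ to 3′ on the strand of the gene: Ucp1 at chr8:83290098-83290347 (plus strand), Cox8b at chr7:140900447-140900696 (minus strand) and Ehhadh at chr16:21787835-21788084 (minus strand). Capitals mark AGGTCA, a short element bound by many nuclear receptors, which was searched on both strands.
Ucp1: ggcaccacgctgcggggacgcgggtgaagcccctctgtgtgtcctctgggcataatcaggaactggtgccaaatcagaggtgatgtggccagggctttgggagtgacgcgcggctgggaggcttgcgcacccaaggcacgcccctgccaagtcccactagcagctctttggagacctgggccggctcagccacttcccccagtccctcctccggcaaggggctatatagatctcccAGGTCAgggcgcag
Cox8b: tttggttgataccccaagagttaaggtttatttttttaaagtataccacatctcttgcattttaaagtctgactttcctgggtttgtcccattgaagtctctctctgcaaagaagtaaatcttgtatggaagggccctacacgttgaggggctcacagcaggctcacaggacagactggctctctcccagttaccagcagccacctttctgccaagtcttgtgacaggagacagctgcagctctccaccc
Ehhadh: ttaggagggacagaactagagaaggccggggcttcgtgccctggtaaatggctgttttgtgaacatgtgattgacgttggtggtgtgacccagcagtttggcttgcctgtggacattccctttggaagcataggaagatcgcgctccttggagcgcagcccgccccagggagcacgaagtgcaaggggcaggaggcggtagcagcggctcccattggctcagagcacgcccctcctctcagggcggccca
In these windows the letters occurred once in Ucp1, beginning 14 bases before the start, and were not found in Cox8b and Ehhadh. They were also not found in the same window of Cox7a1, which is not shown and which was lower, like Ucp1. Of 32851 promoters of this length, 14% held the letters. That set counts every promoter of a gene, measured here or not, so it is unlike the single-promoter genes that follow. Among the brown genes defined further on, 773 of 1248 matched a single promoter, and the letters stood in 19 of 103 that were lower (18.4%), 50 of 423 that were within the margin (11.8%) and 17 of 189 that were higher (8.99%) in triple mutant white fat. These shares describe letters in a window and were not tested.

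Ob brown fat carried the defining transcript of its tissue, Ucp1, at 11.62, 11.47 and 12, and the adipocyte marker list averaged 11.69 to 11.76 on the triple mutant white arrays and 11.20 to 11.33 on the ob brown ones. Leptin (Lep) did not mark white fat here, since it read 11.60, 11.58 and 11.30 there and 11.43, 11.60 and 11.31 in ob brown fat (log2 difference 0.04, adjusted p = 0.869). Background was gauged with 45 antigenomic control probe sets, whose highest signal lay between 7.40 and 8.13 per array; a group mean below that level has a log2 difference that is no estimate of a fold. The Cidea probe set read 8.42, 8.95 and 10.03 in triple mutant white fat, and the Cidec probe set (chromosome 6, 113374628 to 113385749, build NCBIM37) averaged 11.12 ± 0.11 there (SD, n = 3). Whether these probe sets lie inside the deleted exons is unknown here. The signals are therefore no check of the genotype labels or of transcript loss. The ob brown arrays were unlike each other: the mean of 28 skeletal muscle markers was 7.18, 10.52 and 10.28 on arrays 1 to 3, against 5.59 to 5.64 in triple mutant white fat, while the mean of 25 macrophage markers was highest on array 1 (8.75, against 7.64 and 7.91). In bulk tissue, fewer cells of a type and less RNA per cell cannot be told apart. Among the white arrays, the third had the highest Ucp1. For some lists, counts are also given with ob brown array 1 alone, a setting chosen after seeing the data. Fewer genes were called in that setting in other lists too, where it is not given. These were adrenergic signalling, fatty acid uptake, glycolysis, lipolysis, secreted factors, and adipocyte and endothelial markers. There the brown group is a single array that is assumed to vary like the other groups, so these calls are a description and no independent support.

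**Figure D1:**
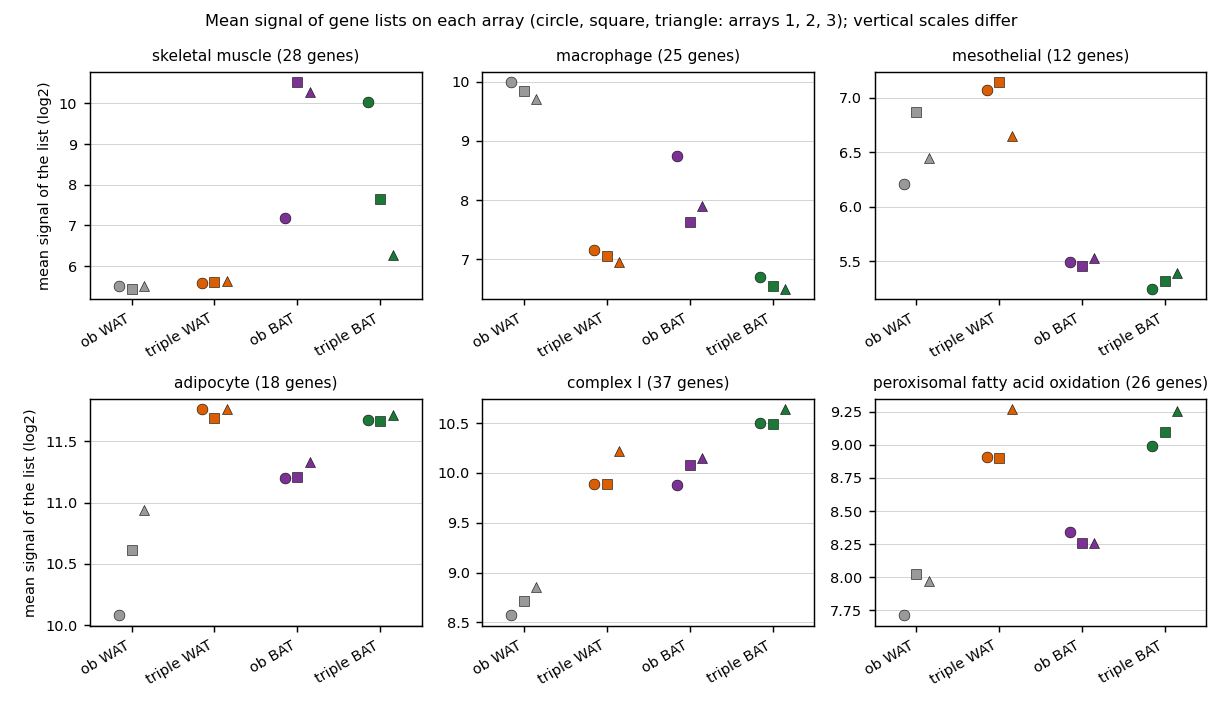
Mean log2 signal of 6 gene lists (vertical axes, which differ in scale) on each of the 12 arrays, by group; circles, squares and triangles are arrays 1, 2 and 3. Muscle markers are high on ob brown arrays 2 and 3 (10.52 and 10.28), macrophage markers on ob brown array 1 (8.75), and mesothelial markers are higher on all 3 triple mutant white arrays (6.65 to 7.14) than on the ob brown arrays (5.46 to 5.53).

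Of 21618 genes, limma called 2228 lower (10.3%) and 2810 higher (13.0%) in triple mutant white fat at an adjusted p under 0.05 (Benjamini-Hochberg over all genes, two-sided). For a further 15926 genes (73.7%) there was no call and the 95% interval of the difference lay within 1 log2 unit on either side of 0, which is what "within the margin" means below. The remaining 654 (3.03%) were undecided, with no call and a wider interval. The median difference over all genes was −0.05. With arrays centred on the 84 cytosolic ribosomal protein genes, whose median difference was −0.29, the same test gave 549 lower and 7862 higher genes, so the balance between the directions depends on that choice. Leaving out white array 1 or 2 or brown array 3 gave 1127, 1237 and 1210 lower genes. Values of the 3 arrays did not overlap between the groups for 8456 genes (39.1%).

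Genes of brown fat were defined by group means of the 6 arrays that the comparison does not use. The definition took those called higher with a log2 difference of at least 1 in triple mutant brown fat over ob white fat. This gave 1248 genes (5.77%). In triple mutant white fat, 192 of them were still lower than in ob brown fat (15.4%, against 10.3% of all genes), 294 were higher (23.6%, against 13.0%), 674 were within the margin (54.0%, against 73.7%) and 88 were undecided. The median difference was 0.09. The balance between the directions turned with the definition: at a minimum of 2 log2 units 86 were lower and 45 higher of 278 genes, and 284 were lower and 34 higher of 695 genes chosen on ob brown minus ob white fat, which shares the ob brown arrays with the comparison. A difference of at least 1 log2 unit was reached by 78 of the lower and 106 of the higher genes. The defining arrays differ in genotype in the same direction as the compared ones, so the list also takes in genes that differ by genotype in both tissues. Same-numbered arrays also deviated together across tissues within a genotype (r = 0.15 to 0.21 across genes in triple mutants, 0.16 to 0.22 in ob mice), and genes are not independent replicates. Wipi2 and Sco1 lay just inside the threshold that defined a brown gene (1.0007 and 1.0008), and Nabp1 and Entpd6 just outside it (0.9997 and 0.9999).

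For 520 genes ob brown fat was at least 1 log2 unit above ob white fat, and over these the triple mutant white fat had covered a median of 84.9% of that gap. It covered under 25% for 56 genes, 25 to 75% for 153, 75 to 125% for 245 and over 125% for 66. Over all 721 genes with such a gap, brown or not, the median was 68.9%, and 193 genes were under 25%. In the other 728 genes ob brown fat was less than 1 unit above ob white fat, and 259 of them were higher and 29 lower in triple mutant white fat. This split uses the ob brown arrays themselves, so it is a description with no test. Brown genes were also chosen partly by a low value in ob white fat, which is the baseline of the shares. The medians of 84.9% and 68.9% are therefore not alike in how their genes were chosen. With ob brown array 1 alone, 71 of the 192 lower and 180 of the 294 higher brown genes were still called, with the spread taken from the other groups.

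**Figure D2:**
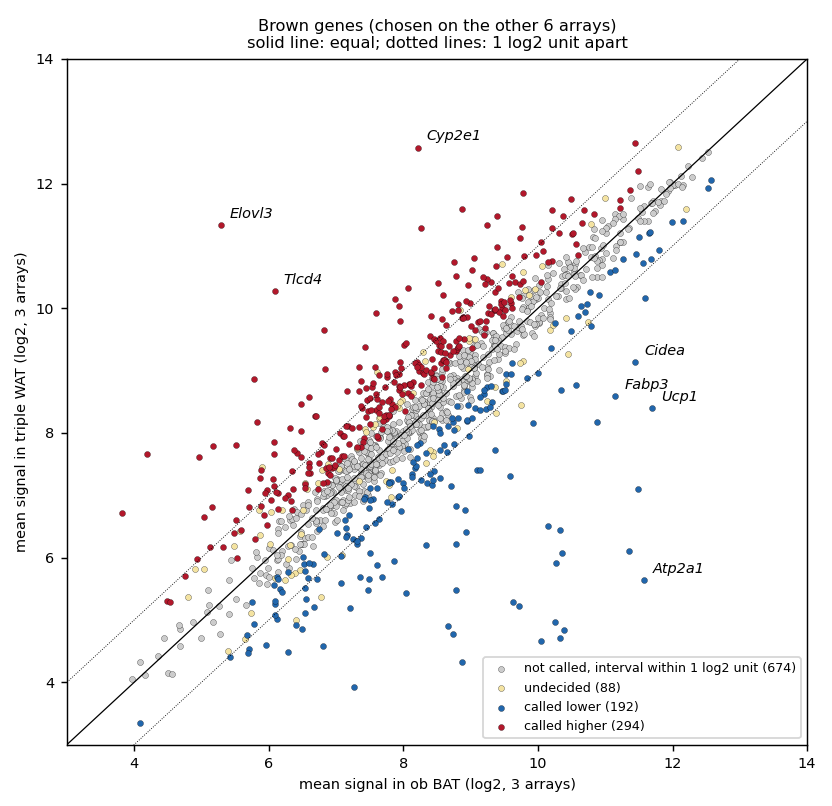
Mean log2 signal in triple mutant white fat (vertical axis) against ob brown fat (horizontal axis) for the 1248 brown genes, 3 arrays each; colours give the class of each gene. Most points lie between the dotted lines that mark 1 log2 unit, Ucp1, Cidea, Fabp3 and the muscle gene Atp2a1 lie far below, and Elovl3, Tlcd4 and Cyp2e1 far above.

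Among 30 thermogenic genes of brown fat, 13 were lower and 5 higher in triple mutant white fat, and 12 were not called, with a median difference of −0.53 against −0.05 over all genes. Over all genes 10.3% were lower and 13.0% higher, and the counts of every list below stand against these shares. The 5 higher thermogenic genes are close to that share. Cidea, a target of the mutation, is counted among the lower thermogenic genes. Ucp1, the uncoupling protein (chromosome 8, 85814251 to 85822351, build NCBIM37), read 6.94, 7.89 and 10.36 in triple mutant white fat and 11.62, 11.47 and 12 in ob brown fat. All 3 white arrays were below all brown ones, the first below its highest control, and the third stood well above the other white arrays. The log2 difference was −3.30 (SE 0.67, limma adjusted p = 0.00505), and −4.28 without the third white array (adjusted p = 4.83e-05). Measured from ob white fat, whose Ucp1 of 5.18, 4.91 and 6.21 was below background, triple mutant white fat stood 47.3% of the way to ob brown fat.

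Fabp3, a fatty acid binding protein of muscle and brown fat, was also highest on the third white array, with 7.38, 8.58 and 9.83 against 10.83, 11.19 and 11.43 (log2 difference −2.55, SE 0.44, adjusted p = 0.00206). Cidea, a lipid droplet protein enriched in brown adipocytes, is itself a target of the mutation, so its value is no measure of how brown the white fat was. It was 4.96 times as high in ob brown fat, at 11.45 ± 0.06 against 9.13 ± 0.82 (SD, n = 3 each; log2 difference −2.31, adjusted p = 0.000464). Cox7a1, a cytochrome c oxidase subunit of heart, skeletal muscle and brown fat, read 9.73, 9.83 and 10.93 against 11.42, 11.62 and 11.72 (log2 difference −1.43, SE 0.27, adjusted p = 0.00359). For each of these genes the third white array lay nearest to brown fat, and the groups did not overlap. Among the brown arrays, Fabp3 and Cox7a1 were lowest on array 1, the one with the least muscle RNA. Neither gene was called lower with that brown array alone. The part that muscle RNA has in their differences was not tested. Without the third white array the log2 differences of Fabp3, Cidea and Cox7a1 were −3.17, −2.76 and −1.81 (limma adjusted p = 5.37e-05, 1.87e-05 and 6.98e-05).

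S100b, a calcium-binding protein, read 5.49, 5.46 and 6.02 against 7.53, 7.43 and 7.48, all under the highest controls of their arrays (log2 difference −1.83, adjusted p = 5.4e-05). Smaller shortfalls were those of Letmd1, a mitochondrial protein (log2 difference −0.84), Sirt3, the mitochondrial deacetylase (−0.86), Otop1, a proton channel (−0.83), and Acsl5, an acyl-CoA synthetase (−0.62), with adjusted p from 0.000634 to 0.00771 and Sirt3 below background in both groups. Cpt1b, which lets fatty acids enter mitochondria, was 1.78 times as high in ob brown fat (log2 difference −0.83, adjusted p = 0.0294). That call was lost without white array 1 or 2 or brown array 2 or 3, at differences of −0.71, −0.74, −0.86 and −0.75. With ob brown array 1 alone, Cidea, Otop1, S100b, Acsl5, Sirt3 and Letmd1 were called lower, and Ucp1 was not (log2 difference −3.23, adjusted p = 0.0668). With ribosomal centring 8 were called lower and 6 higher.

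Several regulators were not called. Ppargc1a, the coactivator PGC-1 alpha that drives mitochondrial and thermogenic genes (chromosome 5, 51848876 to 51945100), read 7.96, 7.87 and 8.73 in triple mutant white fat and 7.87, 8.36 and 9.12 in ob brown fat, and the ranges overlapped (log2 difference −0.26, 95% interval −0.94 to 0.41, adjusted p = 0.556). Dio2, which makes active thyroid hormone, read 7.81, 7.16 and 6.71 against 7.07, 6.83 and 8.14, mostly below the highest controls (95% interval −1.27 to 1.03). Plin5, the droplet protein that holds droplets to mitochondria, had 8.17, 8.27 and 8.79 against 8.56, 8.24 and 8.82 (log2 difference −0.13, 95% interval −0.53 to 0.26). Ppara, the nuclear receptor for fatty acid oxidation genes, was undecided (log2 difference −0.62, 95% interval −1.34 to 0.09, adjusted p = 0.188). Cox8b, a complex IV subunit found in brown fat and muscle, did not overlap between the groups, with 11.46, 11.44 and 11.86 against 12.12, 12.16 and 12.30, but missed the threshold (log2 difference −0.60, adjusted p = 0.104).

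Thermogenic genes that were higher in triple mutant white fat than in ob brown fat were led by Elovl3, an elongase of very long chain fatty acids (chromosome 19, 46206389 to 46210184). It read 11.43, 11.01 and 11.58 in triple mutant white fat and 5.94, 5.25 and 4.67 in ob brown fat, where every array was below background (log2 difference 6.05, SE 0.27, adjusted p = 3.9e-07). Ob white fat lay equally low (5.08 ± 0.20, SD, n = 3), whereas triple mutant brown fat averaged 10.34. Cyp2b10, a cytochrome P450, read 10.21, 8.80 and 9.95 against 5.50, 7.48 and 7.47, with ob brown fat below background (log2 difference 2.84, adjusted p = 0.00488). Ucp3, an uncoupling protein homologue of muscle and brown fat, was higher by 1.01 (8.69, 8.98 and 9.19 against 7.88, 8.10 and 7.84, adjusted p = 0.00104). It was below background on ob brown arrays 1 and 3. Gk, the glycerol kinase that reuses glycerol, was higher by 1.14 and Ehhadh by 1.73, with adjusted p of 0.00556 and 0.00707. None of these 5 genes overlapped between the groups.

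**Figure D3:**
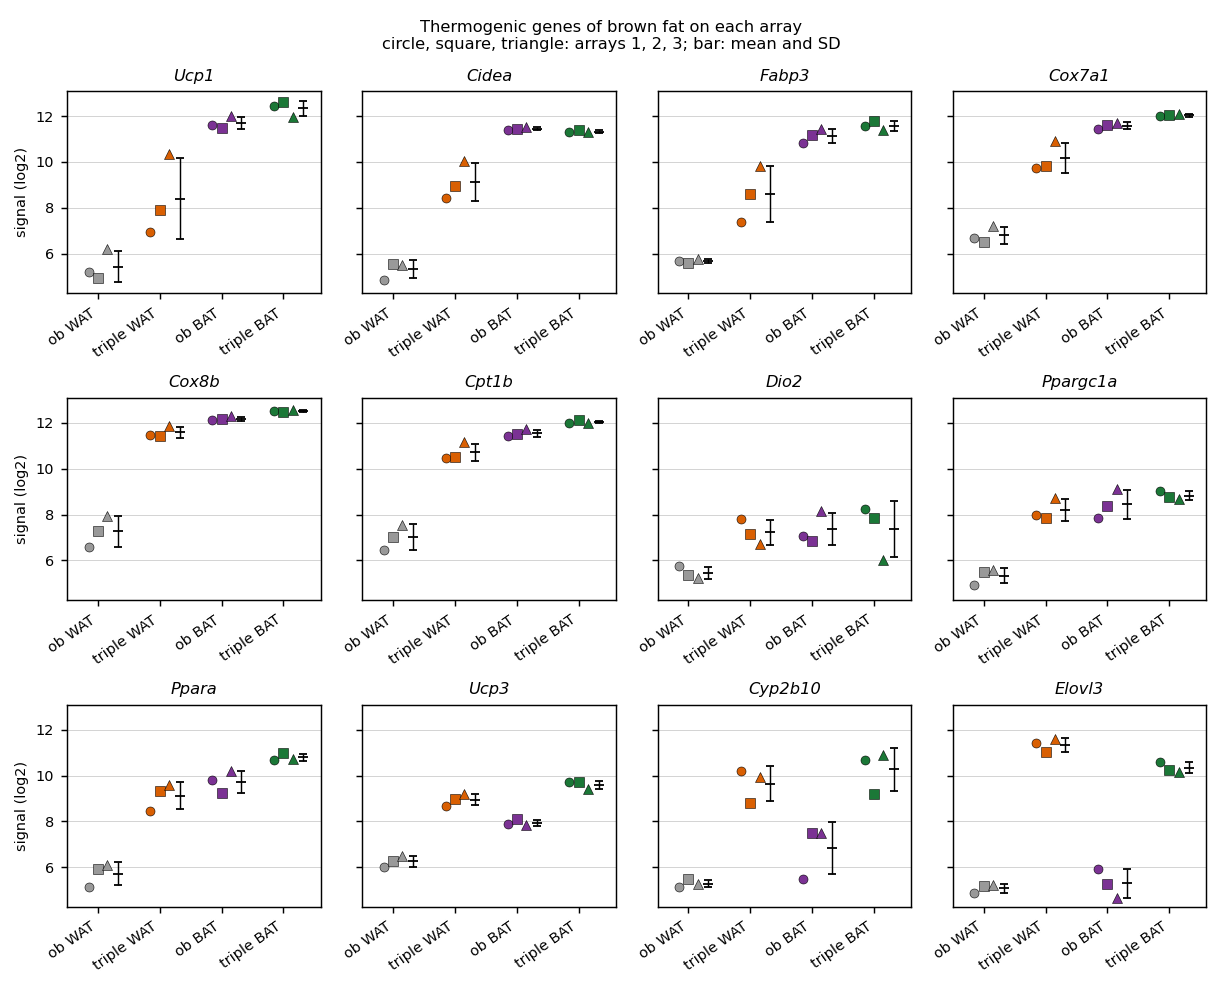
Log2 signal (vertical axis) of 12 thermogenic genes in the 4 groups; symbols are arrays 1, 2 and 3, and bars give mean and SD. In triple mutant white fat Ucp1, Cidea, Fabp3 and Cox7a1 stay below ob brown fat, Dio2, Ppargc1a and Ppara overlap with it, and Ucp3, Cyp2b10 and Elovl3 lie above it.

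Of the transcription factors and identity genes of brown fat, 7 of 19 were lower, 1 was higher and 11 were not called (median −0.29). Prdm16, a regulator that specifies brown adipocytes (chromosome 4, 153694383 to 154010960), read 6.35, 6.34 and 6.19 in triple mutant white fat and 7.38, 6.96 and 7.44 in ob brown fat (log2 difference −0.96, SE 0.18, adjusted p = 0.00365). The groups did not overlap, but all 6 values were below the highest controls. Ebf2, a factor that marks brown precursors, was above background in ob brown fat and on all but 1 white array, at 7.83, 7.55 and 8.08 against 8.73, 8.84 and 8.68 (log2 difference −0.93, adjusted p = 0.000256). Its mean of 7.82 in triple mutant white fat covered 12.8% of the gap from ob white fat.

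Zic1 and Lhx8, transcription factors found in classical brown fat, lay at the level of ob white fat in triple mutant white fat (4.47 and 5.08, against 4.44 and 5.05), below ob brown fat by 1.22 and 1.02 (adjusted p = 0.00178 and 0.00252). Both were below background in every group. Meox2, a homeobox gene, was lower by 1.01 (7.40, 7.83 and 7.39 against 8.52, 8.57 and 8.55; adjusted p = 0.0011). Tbx15, a T-box factor of some fat depots and muscle fibres, read 3.87, 3.87 and 4.01 against 5.70, 8.45 and 7.66, so it was highest on the ob brown arrays rich in muscle RNA (log2 difference −3.35, and −1.78 with brown array 1 alone). It was below background on every triple mutant white array and on ob brown arrays 1 and 3. With ob brown array 1 alone, and the spread of the other groups, adjusted p for these 4 genes, Prdm16 and Ebf2 ran from 0.00893 to 0.042.

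Other identity genes were close to ob brown fat. Mpzl2, a cell adhesion protein, averaged 8.22 in both groups (95% interval within the margin, adjusted p = 0.998), up from 5.49 in ob white fat. Nfia, a factor that cooperates with the brown programme, had a difference of −0.09, Cebpb 0.09 and Ebf3 −0.36, each within the margin. Oplah, an enzyme of glutathione turnover, was higher by 0.96 (adjusted p = 0.004). With ribosomal centring 6 of the 19 were lower and 2 higher, and the median difference was 0.00. Of 12 beige fat markers 2 were lower, 2 higher and 8 within the margin, against 73.7% of all genes within it. Of the 12, 8 were above background on no triple mutant white array, and 8 on no ob brown array. Slc27a1, a fatty acid transporter, was the most changed (log2 difference 1.84, adjusted p = 1.22e-05). Tmem26 and Tbx1, surface and transcription factor markers of beige cells, were not called (log2 differences −0.35 and −0.11).

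Genes of white fat and of depot position differed from ob brown fat in part. Of 24 such genes 11 were higher in triple mutant white fat, 4 were lower and 9 were not called (median 0.68). Hoxc8, a homeobox gene of trunk position (chromosome 15, 102820970 to 102823801), read 10.82, 10.69 and 10.63 against 7.27, 8.38 and 6.96 (log2 difference 3.18, SE 0.34, adjusted p = 9.79e-05). Hoxc9 was higher by 1.21, Hoxc6 by 1.16 and Hoxd8 by 0.88, whereas Hoxa5 was lower by 0.58 (adjusted p from 0.000101 to 0.0108). Hoxc9, Hoxd8 and Hoxa5 were below background in both groups, and Hoxc8 on ob brown arrays 1 and 3. Agt, the precursor of angiotensin (chromosome 8, 127080487 to 127100793), read 10.33, 9.77 and 9.76 against 5.70, 6.36 and 6.11 (log2 difference 3.90, adjusted p = 5.03e-06). Every ob brown value of Agt was below background. Retn, the adipokine resistin, was 5.60 times as high (12.61 ± 0.07 against 10.12 ± 0.45, SD, n = 3 each).

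Slc7a10, an amino acid transporter used as a white adipocyte marker, read 10.75, 10.90 and 11.04 against 8.33, 8.13 and 7.43 (log2 difference 2.93, adjusted p = 3.51e-05). Psat1, an enzyme of serine synthesis, was higher by 2.55, and Tcf21 and Wt1, transcription factors of visceral fat, by 1.12 and 0.99, the last 2 below background in both groups. Nnat, the imprinted gene neuronatin (chromosome 2, 157385846 to 157388253), went the other way, at 6.80, 7.61 and 7.13 against 11.83, 11.67 and 11.80 (log2 difference −4.58, SE 0.30, adjusted p = 4.48e-06). Nnat was below background on every triple mutant white array, and it was lower there than in ob white fat too (7.18 against 9.97). Dpt, the matrix protein dermatopontin, was lower by 1.47 (adjusted p = 1.08e-05).

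**Figure D4:**
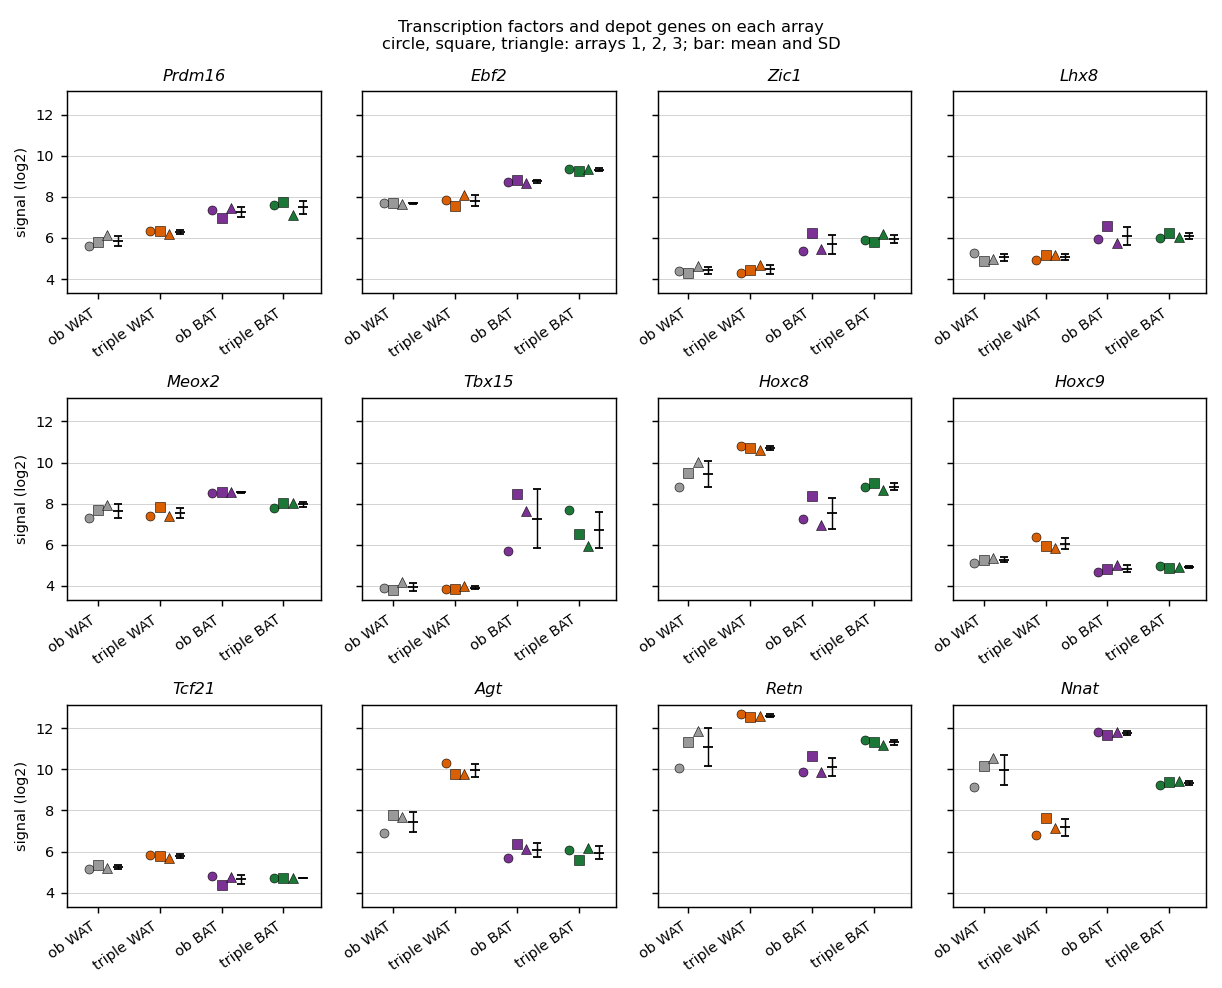
Log2 signal (vertical axis) of 12 transcription factors and depot genes in the 4 groups; symbols are arrays 1, 2 and 3, and bars give mean and SD. Triple mutant white fat lies below ob brown fat for Prdm16, Ebf2, Zic1, Lhx8, Meox2, Tbx15 and Nnat and above it for Hoxc8, Hoxc9, Tcf21, Agt and Retn, and Tbx15 varies between the ob brown arrays (5.70, 8.45 and 7.66).

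In adrenergic signalling, 4 of 21 genes were lower, 6 higher and 11 not called (median 0.11). Adrb1, a beta-adrenergic receptor, read 6.77, 6.66 and 6.98 against 7.35, 7.35 and 7.52, below background in both groups (log2 difference −0.60, adjusted p = 0.004). Adrb3, the main beta receptor of rodent adipocytes, read 9.92, 9.75 and 10.22 in triple mutant white fat and 8.28, 8.57 and 9.67 in ob brown fat. The groups did not overlap, the third brown array lay close to the white ones, and there was no call (log2 difference 1.13, 95% interval −0.04 to 2.29, adjusted p = 0.145), nor without that array (1.54, adjusted p = 0.0887).

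Downstream of the receptors, Gnai1, the inhibitory G protein subunit, was 4.16 times as high in triple mutant white fat (10.62 to 10.71 there, with no overlap; adjusted p = 3.57e-05). Pde3b, the phosphodiesterase through which insulin restrains lipolysis, was higher by 0.85, and the protein kinase A subunits Prkar2b and Prkaca by 0.61 and 0.66, while Pde4d, another phosphodiesterase, was lower by 0.74 (adjusted p from 0.00177 to 0.0139). The call of Prkaca was lost without ob brown array 3 (log2 difference 0.62, adjusted p = 0.0513). Gnas, the stimulatory subunit, and Adcy6, an adenylyl cyclase, were within the margin (log2 differences −0.22 and 0.00).

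Of 14 genes of heat cycles that do not need UCP1, 8 were lower and 1 higher (median −0.73). Atp2a1, the calcium pump of skeletal muscle, read 5.51, 5.50 and 5.89 against 9.76, 12.49 and 12.47, and was highest on the ob brown arrays with the most muscle RNA. The part that muscle RNA has in these differences was not tested. Alpl, the phosphatase of the creatine cycle, was lower by 0.96 (6.39, 6.56 and 6.50 against 7.33, 7.43 and 7.56, all under the highest controls; adjusted p = 0.0039), and Ckb, the creatine kinase of that cycle, was within the margin (log2 difference 0.24). With ob brown array 1 alone 2 of the 14 were called lower, and with ribosomal centring 4.

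**Figure D5:**
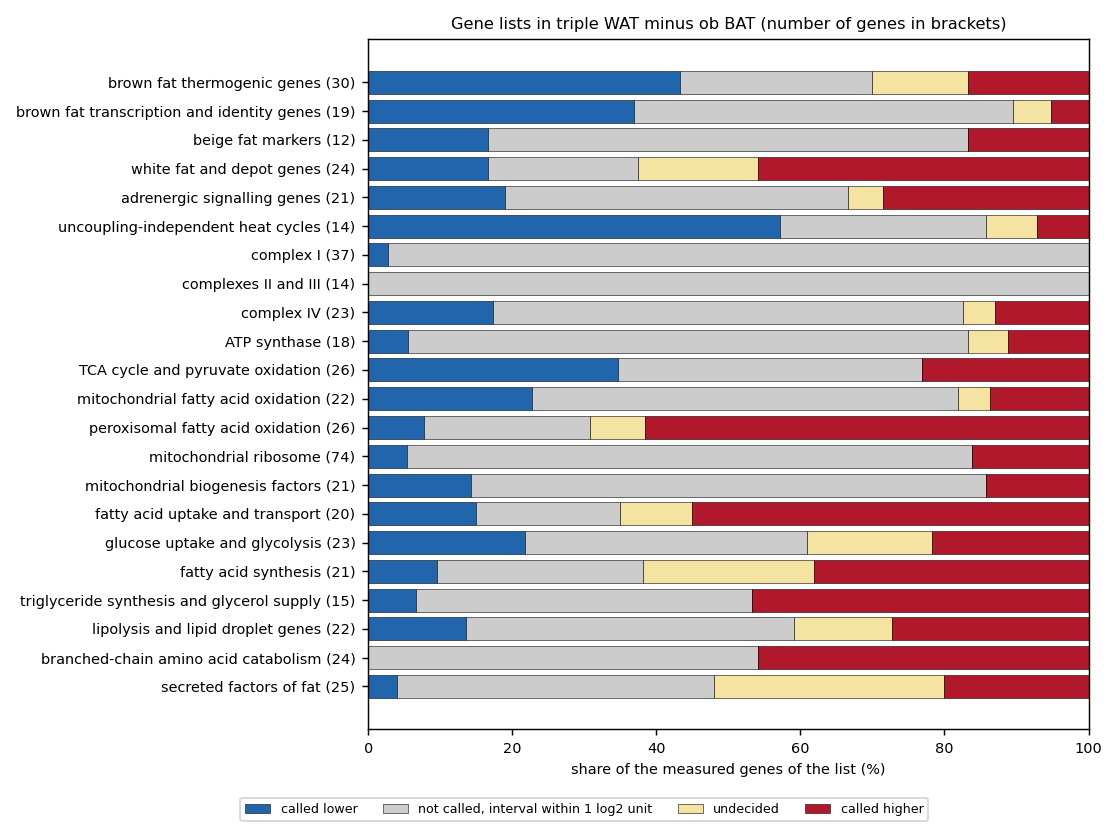
Share of the measured genes of 22 lists (horizontal axis, in percent) that were called lower, within the margin, undecided or called higher in triple mutant white fat relative to ob brown fat. Respiratory complexes I, II and III lie almost wholly within the margin, thermogenic genes and heat cycles have the largest shares called lower, and peroxisomal oxidation and fatty acid uptake the largest shares called higher.

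Transcripts of respiratory complexes I, II and III in triple mutant white fat lay almost wholly within the margin of 1 log2 unit around ob brown fat. Of 37 complex I subunits 36 were within the margin and only Ndufs6 was called lower (log2 difference −0.50, adjusted p = 0.0145), with a median of −0.08; with ribosomal centring none was lower, 8 were higher and the median was 0.21. The call of Ndufs6 was lost without white array 1 or 2 or brown array 3 (−0.47, −0.47 and −0.41). The mean signal of the 37 genes was 9.89, 9.89 and 10.22 on the triple mutant white arrays and 9.88, 10.08 and 10.15 on the ob brown arrays, against 8.57 to 8.86 in ob white fat. The third white array was the highest of its group, and without it 6 complex I genes were called lower and the median was −0.16. All 14 genes of complexes II and III were within the margin (log2 differences from −0.31 to 0.38), and 2 were called lower without that array and 4 higher with ribosomal centring. With ob brown array 1 alone, the one with the least muscle RNA, the median was 0.10 for complex I. For complexes II and III it was 0.13, against −0.05 with all 3 brown arrays.

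In complex IV 4 of 23 genes were lower, 3 higher and 16 not called. The lower ones were the tissue-restricted subunits Cox7a1, Cox6a2 and Cox4i2 and the general subunit Cox5a. Cox6a2, a muscle form, read 6.38, 6.67 and 6.83 against 7.53, 10.01 and 9.33, highest on the muscle-rich brown arrays, and with brown array 1 alone it was not called (log2 difference −0.91). Its call was also lost without white array 1 or 2 or brown array 2 or 3 (−2.21, −2.35, −1.80 and −2.14). Cox5a (log2 difference −0.49) missed the threshold without white array 1 or 2 or brown array 2 or 3 (−0.37, −0.40, −0.48 and −0.41), and Cox4i2 (−0.31) without white array 1 or 2 or brown array 1 or 2 (−0.30, −0.30, −0.25 and −0.29). Assembly factors were the higher ones: Cox19 by 0.88, Surf1 by 0.52 and Cox15 by 0.35 (adjusted p from 0.00352 to 0.0103). In ATP synthase 1 of 18 genes was lower and 2 were higher, and of 74 mitochondrial ribosomal proteins 4 were lower and 12 higher (median 0.17), shares not far from those of all genes. These counts became 12 and 9 without the third white array and 0 and 42 with ribosomal centring. Tfam, which packs mitochondrial DNA, was higher by 0.72 and below background in both groups (adjusted p = 0.00361).

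In the TCA cycle and pyruvate oxidation 9 of 26 genes were lower and 6 higher (median −0.17). Idh2, the mitochondrial isocitrate dehydrogenase that makes NADPH, averaged 9.72 ± 0.11 against 10.79 ± 0.21 (SD, n = 3 each), so that ob brown fat was 2.09 times as high (log2 difference −1.06, SE 0.14, adjusted p = 0.000334). Mpc2, a subunit of the mitochondrial pyruvate carrier, was 3.36 times as high in triple mutant white fat (10.84, 10.76 and 10.81 against 8.67, 9.32 and 9.16; adjusted p = 6.6e-05), and Pcx, which carboxylates pyruvate, was higher by 1.11. With ob brown array 1 alone 2 were lower and 6 higher, and with ribosomal centring 2 and 8, at a median of 0.12.

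Mitochondrial fatty acid oxidation had 5 lower and 3 higher genes of 22 (median 0.04), the latter close to the 13.0% of all genes. Acss1, which activates acetate, was lower by 0.96, and Cpt1a, the liver form of the carnitine acyltransferase, was higher by 1.19 (9.68, 9.81 and 9.62 against 9.06, 8.31 and 8.16; adjusted p = 0.00663). None of the 5 was called lower with ob brown array 1 alone, and with ribosomal centring 1 gene was lower and 8 were higher. Peroxisomal oxidation differed more: 16 of 26 genes were higher and 2 lower (median 0.61), and 11 were higher with ob brown array 1 alone and 20 with ribosomal centring.

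Cat, the peroxide-removing catalase, read 12.77, 12.79 and 12.77 in triple mutant white fat and 11.74, 11.61 and 11.63 in ob brown fat (log2 difference 1.12, SE 0.07, adjusted p = 4.48e-06). Abcd2, a peroxisomal fatty acid transporter, was 3.30 times as high (11.63, 11.66 and 11.67 against 9.80, 10.22 and 9.78) (adjusted p = 2.75e-05). Hacl1, which shortens branched chains, was higher by 2.26, with ob brown fat above background on 1 array.

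Among genes of fatty acid uptake and transport 11 of 20 were higher and 3 lower (median 0.42). Slc27a1 was 3.59 times as high (11.76, 11.23 and 11.67 against 9.96, 9.63 and 9.53), and Lpl, lipoprotein lipase, higher by 0.56 (adjusted p = 1.22e-05 and 0.000249). In triglyceride synthesis 7 of 15 were higher and 1 lower. Agpat2 and Lpin2, enzymes of the glycerolipid pathway, were higher by 1.21 and 1.07, whereas Gpd2, the mitochondrial glycerol phosphate dehydrogenase of brown fat, was lower by 1.80 (8.51, 8.67 and 9.12 against 10.45, 10.52 and 10.72; adjusted p = 1.1e-05).

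Fatty acid synthesis had 8 higher and 2 lower genes of 21 (median 0.37). Slc25a1, the citrate carrier, read 12.38, 12.38 and 12.31 against 10.29, 10.77 and 10.02 (log2 difference 2, adjusted p = 3.97e-05), and Hsd17b12, a reductase of chain elongation, was 4.61 times as high (adjusted p = 1.77e-06). Acaca, acetyl-CoA carboxylase, was within the margin (log2 difference −0.16).

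Among 22 lipolysis and droplet genes 6 were higher and 3 lower (median 0.39), the lower ones including Cidea, a target of the mutation. Pnpla2 and Lipe, the main triglyceride and diglyceride lipases, were within the margin (log2 differences 0.03 and 0.06). Abhd5, the coactivator of PNPLA2, was higher by 1.22 (10.90, 10.60 and 11.07 against 9.47, 9.69 and 9.76), Mgll, monoglyceride lipase, by 1.05 and Bscl2, seipin, by 1.14 (adjusted p from 0.000159 to 0.00128). Plin2, a coat protein of many cell types, was higher by 0.84, and Plin3 lower by 0.62. Fitm1, a droplet protein of muscle, was highest on the muscle-rich brown arrays (6.29, 8.55 and 7.99, against 5.69, 5.84 and 6.11 in triple mutant white fat), and its call was lost without white array 1 or 2 or brown array 2 or 3 (−1.64, −1.71, −1.26 and −1.54).

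Glucose uptake and glycolysis held 5 lower and 5 higher genes of 23 (median −0.10), which became 3 and 11 (median 0.18) with ribosomal centring. Pfkfb3, a regulator of glycolysis, was 4.24 times as high in triple mutant white fat (11.44, 11.44 and 11.11 against 9.24, 9.04 and 9.46; adjusted p = 2.95e-05). Hk1, a hexokinase, was lower by 1.07 (adjusted p = 0.00207), with the white group below background. Eno3, the muscle form of enolase, was lower by 3.88, and it was not called with ob brown array 1 alone (−1.74).

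In branched-chain amino acid breakdown 11 of 24 genes were higher, 13 were within the margin and none was called lower (median 0.53). Bcat2, the first enzyme of the pathway, was 3.28 times as high (10.50, 10.23 and 10.84 against 8.68, 8.82 and 8.93; adjusted p = 8.72e-05), Mccc1, a leucine pathway carboxylase subunit, higher by 1.24 and Oxct1, which uses ketone bodies, by 1.19. With ob brown array 1 alone 6 were called higher, and without the third white array 7. Among 25 secreted factors 5 were higher and 1 lower. Cfd, the complement factor adipsin, was higher by 1.38 (11.83, 11.65 and 11.26 against 10.01, 10.13 and 10.47), Slit2, a guidance protein, by 1.40, and Apln, the peptide apelin, was lower by 0.85 (adjusted p from 0.000115 to 0.0104), Slit2 and Apln being below background in both groups. Fgf21 and Bmp8b, factors linked to thermogenesis, were below background in both groups.

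The 10 brown genes furthest above ob brown fat were Elovl3, Cyp2e1, Tlcd4, Dusp15, Mc5r, Reep6, Cyp2b10, Echdc1, Eci3 and Gldc, with log2 differences from 6.05 to 2.62. Cyp2e1, a cytochrome P450, averaged 12.58 against 8.21 and was 20.6 times as high. Mc5r, a melanocortin receptor, was higher by 3.08, with ob brown fat below background, and Echdc1, an enzyme that removes faulty acyl-CoA, by 2.72, with both groups above it. The 10 furthest below were Atp2a1, Ttn, Pvalb, Myh4, Neb, Tnnt3, Myh1, Myot, Acta1 and Actn3, all genes of the contractile or calcium apparatus of skeletal muscle. None but Atp2a1 was called with ob brown array 1 alone. Myh1 also missed the threshold without white array 1 or 2 or brown array 2 or 3 (−4.42, −4.48, −3.63 and −4.07), and Myot without white array 2 or 3 or brown array 2 or 3 (−4.59, −4.19, −3.76 and −3.89). Muscle markers were high in the triple mutant brown arrays as well (means of 10.04, 7.65 and 6.27), and 13 genes of the muscle list are among the brown genes.

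Over all genes, those furthest above ob brown fat also included Lipf, gastric lipase, Slc5a7, a choline transporter, and Sptlc3, a sphingolipid synthesis subunit, with log2 differences of 5.44, 4.13 and 4.09. All 3 were below background on the 3 ob brown arrays, and they were above it on the 3 triple mutant white arrays except Slc5a7, which was above it on 2. Sptlc3 was also low in the other groups: it averaged 4.95 in ob white fat, 8.56 in triple mutant white fat, 4.46 in ob brown and 4.97 in triple mutant brown fat.

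White fat genes were defined in the same way, as the 1583 called at least 1 log2 unit lower in triple mutant brown than in ob white fat (7.32%). Of these 333 were lower in triple mutant white fat than in ob brown fat (21.0%), 185 higher (11.7%), 834 within the margin (52.7%) and 231 undecided, with a median of −0.23. Over all genes the shares were 10.3% lower, 13.0% higher and 73.7% within the margin, so the share that was higher was near that of all genes. Without white array 1 or 2 the lower ones numbered 200 and 205. Macrophage genes made up the furthest below: Mmp12, macrophage elastase (chromosome 9, 7347374 to 7369499), read 5.52, 5.27 and 5.41 against 9.59, 8.68 and 9.16 (log2 difference −3.74, adjusted p = 4.25e-05), and Gpnmb and Atp6v0d2, genes of lipid-laden macrophages, were lower by 3.19 and 3.16. All 3 were below background in triple mutant white fat. Of the 25 macrophage markers 13 were lower and none higher (median −0.88), and 21 were lower with ob brown array 1, the richest in macrophage RNA, alone. With ribosomal centring 9 were lower and 1 higher.

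White genes furthest above ob brown fat included Agt, Slc5a7, Alb, C6 and C7, of which Alb is albumin and C6 and C7 are complement components. Mesothelial markers, which belong to the lining of visceral organs, were higher for 11 of 12 genes (median 1.38, and 9 of 12 with ob brown array 1 alone); Upk3b read 7.83, 8.01 and 7.74 against 5.76, 5.38 and 5.81, and Gpm6a was higher by 3.17. Of the 12 mesothelial markers, 7 were above background on no triple mutant white array and 11 on no ob brown array. The list's mean was 6.65 to 7.14 in triple mutant white fat and 5.46 to 5.53 in ob brown fat, and Wt1 belongs to it. Its part in the depot genes was not tested. Of 18 endothelial markers 5 were lower and 3 higher, and of 17 fibroblast markers 7 were lower and 1 higher; ribosomal centring gave 0 and 4 and 6 and 5. The collagen gene Col3a1 was lower by 0.90 and the preadipocyte marker Dlk1 by 1.03 (adjusted p = 0.000639 and 0.000112), Dlk1 being below background in both groups. Of 18 adipocyte markers 6 were higher and none lower (median 0.28).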

How the data were processed

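Total RNA of 12 fat samples was measured on Affymetrix mouse gene ST arrays. The deposited values are log2 signals made by the authors with RMA, per the submitters' processing notes, which also name limma; versions are not given in the sources used here. Another 12 per-array columns could not be tied to a sample and were not used. Of 28350 main probe sets, 25004 carry 1 gene symbol; the probe set with the highest mean stood for each of 21618 genes. Coordinates are those of the deposited annotation, which names NCBIM37 for 2980 probe sets.

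The 4 groups of 3 arrays entered 1 limma fit (version 3.58.1, R 4.3.3), and triple mutant white minus ob brown fat was tested two-sided with Benjamini-Hochberg adjustment at 0.05. The fit was tested on simulated data. The number of arrays limits the precision. The members and the 35 gene lists were chosen with earlier results of these data known. Named genes come from all members of 9 lists, the 4 smallest and 2 largest p in each other list, the 15 largest differences each way among called genes whose groups do not overlap and whose higher group averages at least 6, and the 10 each way among brown and white genes. Genes just inside or outside the brown threshold are named too. A few genes that the rule gives are not reported here. Alternatives were other centrings, array sets, background filters, probe set rules and set thresholds, each array left out, a replicate block and, chosen after seeing the data, ob brown array 1 alone.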

Additional observations from a re-analysis of the deposited data

How the results depend on the processing

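The count of higher genes was 2810 in the analysis reported and 1472 to 7862 under the alternatives that moved it by over 1.5 times: 7862 with ribosomal centring, 1577 among genes above the highest control, 1699 with the replicate block and 1472 with ob brown array 1 alone. Lower genes numbered 2228, and 1197 with only the 6 arrays compared, 1459 with median centring, 549 with ribosomal centring, 715 above the highest control, 890 with the replicate block and 1127 to 2483 when 1 array was left out. Higher brown genes numbered 294, and 569 with ribosomal centring, 45 of 278 with a minimum of 2 log2 units for a brown gene and 34 of 695 when chosen on ob brown minus ob white fat. Lower brown genes numbered 192, and 112 with ribosomal centring, 104 above the highest control, 72 with ob brown array 1 alone, 86 of 278 at 2 log2 units and 284 of 695 when chosen on ob brown minus ob white fat. Brown genes within the margin numbered 674, and 378 above the highest control, 116 at 2 log2 units, 289 when chosen on ob brown minus ob white fat and 303 with a margin of 0.5. Higher white genes numbered 185, and 363 with ribosomal centring, 94 above the highest control, 103 with ob brown array 1 alone and 32 at 2 log2 units. Lower white genes numbered 333, and 183 with only the 6 arrays, 170 with ribosomal centring, 149 above the highest control, 175 with the replicate block, 587 with ob brown array 1 alone, 173 at 2 log2 units and 200 to 445 when 1 array was left out. White genes within the margin numbered 834, and 184 above the highest control, 166 at 2 log2 units and 249 with a margin of 0.5. Of the thermogenic genes 8 were lower with ribosomal centring and 6 with ob brown array 1 alone, and of the identity genes 2 were higher with ribosomal centring and 2 lower above the highest control. Ribosomal centring lifts every difference alike, so small negative differences turn sign, as for Cox6c (0.28), Eng (0.27), Hdc (0.28), Myf5 (0.00) and Pax5 (0.27), which says nothing particular about these genes. Where the alternative tests fewer genes or arrays that is part of its construction; otherwise the cause was not tested. Same-numbered arrays of the 2 groups share only a number: their deviations correlated at 0.043, 0.027 and 0.099 across genes, and the replicate block lost 27 of 199 calls among named genes. Dim genes limit the report, since 19.51 to 32.32% of genes exceeded the highest control on an array.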
